A study of Mus musculus with 68 samples.

Results

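The 9 genes described here encode transcription factors and chromatin factors linked to the start of transcription in the mouse embryo. They are Dux, Dppa2, Dppa4, the NF-Y subunits Nfya, Nfyb and Nfyc, the nuclear receptors Nr5a2 and Rarg, and the Krüppel-like factor Klf17. They were chosen by name, as the rows of each gene table that carry these symbols, out of 24421 reference genes. All 9 were found, on 1 row each in every one of 68 libraries. RNA was sequenced by Smart-seq2, which copies polyadenylated RNA from a few cells, with 10 blastomeres per library. Somatic cell nuclear transfer (SCNT) embryos were made from BDF1 oocytes whose own chromosomes had been removed and into which a cumulus cell (CC) was injected. All were activated with SrCl2 in the presence of cytochalasin B and received no further agent. There were 3 libraries of CCs, 6 each at 6 and 14 h post activation (hpa), 6 each of early 2-cell (E2C) and late 2-cell (L2C) embryos, 5 at the 4-cell stage (4C), and 6 each of 8-cell embryos (8C), morulae, inner cell mass (ICM) and trophectoderm (TE). A second experiment held fertilized C57BL/6j blastocysts, with 2 libraries each of ICM and TE from controls and from zygotes injected with a morpholino oligonucleotide (MO) against Max or against Mcrs1. The control libraries are labelled control and untreated, while the protocol describes a random control MO, so whether the controls were injected is not settled by the labels. The paper states that the controls of these RNA libraries received a control MO, at a higher concentration than the MOs against Max and Mcrs1. Fertilized embryos before the blastocyst were not analysed here, and no SCNT stage was compared with fertilized embryos.

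After fertilization or nuclear transfer the embryo lives at first on RNA and protein stored in the oocyte, and its own genome is switched on in a minor wave in the 1-cell embryo and a major wave at the late 2-cell stage. Dux is a double-homeobox factor that binds and switches on genes and endogenous retroviruses of the 2-cell stage. Dppa2 and Dppa4 are small SAP-domain proteins that bind each other and act upstream of Dux and at CpG-rich promoters. NF-Y is a trimer of Nfya, Nfyb and Nfyc that binds CCAAT boxes and opens promoters, with Nfya carrying the contact to DNA. Nr5a2 and Rarg are nuclear receptors, the latter for retinoic acid, and Klf17 is a zinc-finger factor related to Klf4. The question followed here is which of these RNAs were already present at 6 hpa and which appeared in the embryo.

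Levels are given in TPM, the share of a library's transcripts after correction for gene length. Depth in reads is unknown because the tables give only coverage, FPKM and TPM, and a listed 0 can be a gene that was missed. Between 1.00 and 5.17 gigabases were aligned per library, and 6177 to 11771 reference genes reached 1 TPM. The summed TPM of 8 cumulus markers was 1888 to 3132 in CCs and 4.18 to 14.0 at 6 hpa, and none of the 8 was at 0 in all CC libraries. The sum of 8 oocyte markers, such as Zp3 and Gdf9, was at most 2.25 in CCs, 4196 to 8172 at 6 hpa, 625 to 2732 at L2C and 37.6 to 108 at 4C. The sum of 8 TE markers was 1938 to 8405 in SCNT ICM libraries and 5133 to 16078 in SCNT TE libraries. That of 8 ICM markers was 174 to 402 in SCNT ICM and 57.5 to 194 in SCNT TE, so both sums overlapped. Single markers did differ in the test described below. Of 5 ICM markers tested 4 were lower in SCNT TE than in SCNT ICM and 0 higher, led by Klf2 and Nanog. Of 7 TE markers 2 were higher, Cdx2 and Gata3, and 0 lower, where 5.79% of all genes were called. The protocol speaks of 3 replicates per stage whereas 6 libraries are labelled at most stages, and libraries numbered 1 to 3 stood apart from those numbered 4 to 6. Ranges did not overlap between these sets for 6 of the 9 genes at E2C and at 4C. The number was 5 at 14 hpa and in the ICM, and 4 at 6 hpa. At 8C, in the morula and in the TE it was 3, and at L2C it was 1. The share among all genes was not counted, so the split is not shown to be particular to these 9. Sets of 3 libraries can also fail to overlap by chance. At 4C the second set held 2 libraries, so its count is not on the same footing as the others. L2C replicate 1 also stood apart. The TPM of its reference genes summed to 30.4% of 1000000, the lowest of the 56 libraries, against 51.4% to 61.8% in the other L2C libraries. Loci assembled without a gene name sum to 1000000 by themselves in every library, so this percentage is not a part of a whole. L2C replicate 1 held the lowest L2C value of 7 of the 9 genes. No call of a member was lost without it. SCNT ICM replicates 1 to 3 had 6177 to 6771 reference genes at 1 TPM or more, against 9011 to 10032 in replicates 4 to 6. What separates the replicate sets is not stated in the labels. The labels do not say that replicates came from separate cultures, so p-values measure the spread between these libraries.

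The 9 genes differed in their TPM at 6 hpa relative to that at their highest stage. For Klf17 the median at 6 hpa was 70.6% of the median at its highest stage, 14 hpa, and for Nfya the highest stage was 6 hpa itself. For Nfyc the figure was 34.9%, for Nfyb 10.5% and for Nr5a2 10.4%. For Dppa2 it was 2.67%, for Rarg 0.843% and for Dppa4 0.246%, each against 8C as the highest stage. The Klf17 figure pools replicate sets that differ. In replicates 1 to 3 its median was 125 TPM at 6 hpa and 105 TPM at 14 hpa. In replicates 4 to 6 it was 215 and 380 TPM, so the highest stage was not the same in both sets. Dux had no order of stages, since its median was at most 0.190 TPM at any stage. TPM is a share within each library, so these percentages are not fractions of a gene's RNA. Total RNA per embryo was not measured, and only polyadenylated RNA was copied. RNA stored in the oocyte and RNA made within the first 6 h cannot be told apart in these libraries, and in pooled blastomeres fewer cells that express a gene cannot be told apart from less RNA per cell.

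**Figure D1:**
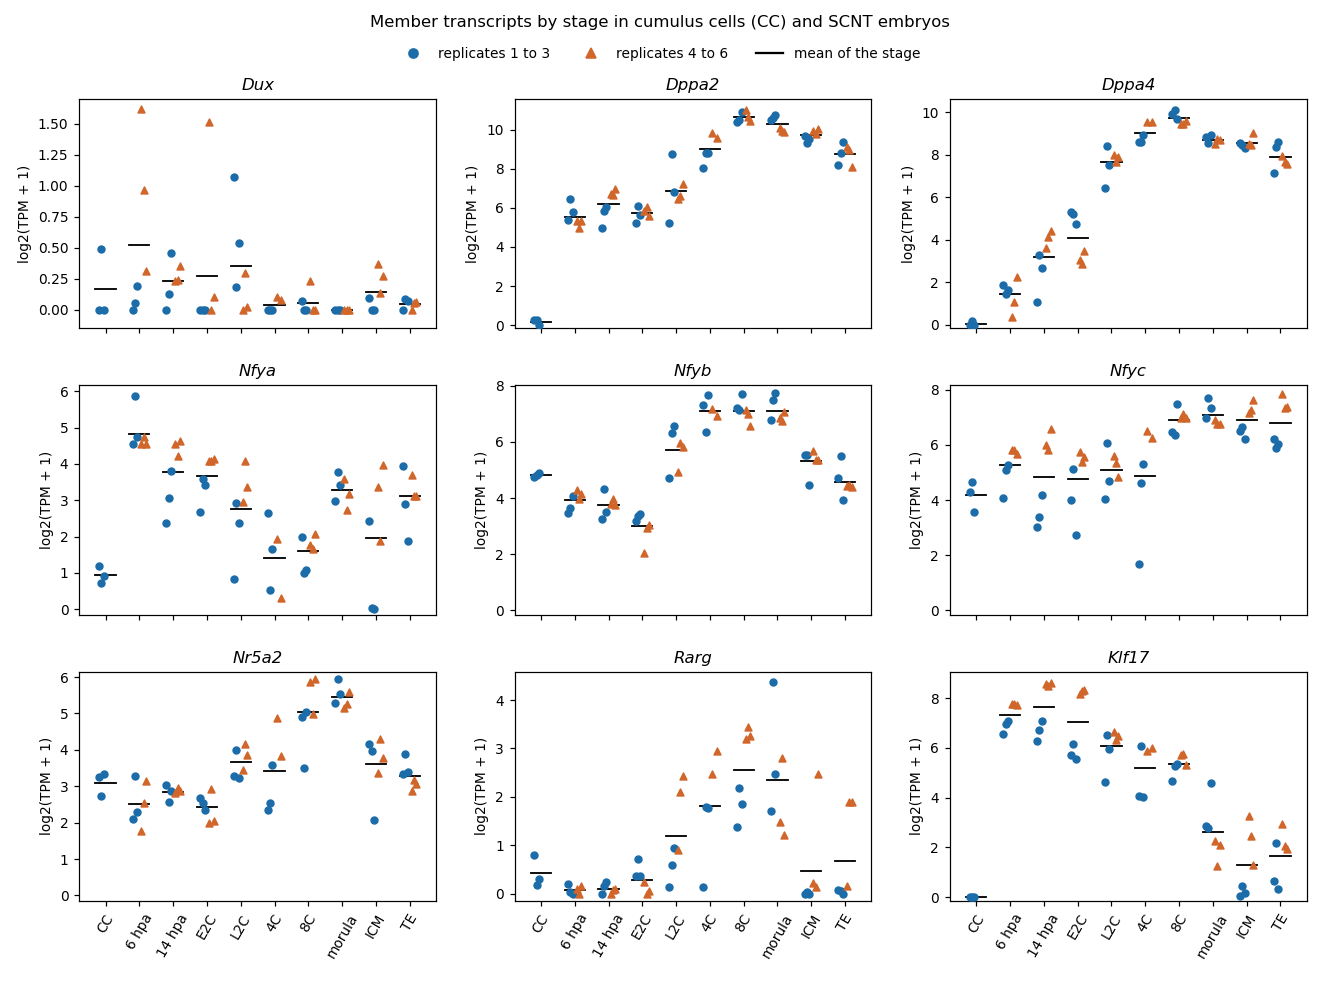
Level of each of the 9 genes in each CC and SCNT library. The x axis gives the stage, the y axis log2(TPM + 1), each point is a library, circles are replicates 1 to 3, triangles replicates 4 to 6 and the bar the mean of the stage. Nfya is highest at 6 hpa. In replicates 4 to 6 Klf17 is high from 6 hpa to E2C and lower later. In replicates 1 to 3 its median is 52.3 TPM at E2C and 61.5 TPM at L2C. Dppa4 climbs from a median of 1.95 TPM at 6 hpa to 791 TPM at 8C, and Dux stays near 0 on an axis of its own.

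Stages were compared with limma on log2(TPM + 1), using the 12084 genes whose TPM averaged 1 or more. A call required both a 2-fold change and, after Benjamini-Hochberg adjustment over all these genes, a p below 0.05. Of the 9 genes, 8 passed this filter and Dux did not. A change on this scale understates that of low genes. From CCs to 6 hpa 4 of the 8 rose and none fell, where 25.8% of all genes tested were called higher and 35.6% lower. From 6 to 14 hpa 1 rose, against 6.17% of all genes called higher and 5.02% lower. From 14 hpa to E2C limma called none of the 8, where 6% of all genes were called, and 2 of the 8 had an unadjusted p under 0.05. From E2C to L2C 4 rose and none fell, against 23.6% of all genes called higher and 11.1% lower. From L2C to 4C 3 rose and 1 fell, against 11.7% called higher and 26.5% lower. From 4C to 8C 3 rose, against 11.6% called higher and 8.39% lower.

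Later steps went mostly downward for these genes. From 8C to the morula 1 rose and 1 fell, against 9.05% of all genes called higher and 3.53% lower. From the morula to the ICM 4 fell, against 15.1% called lower and 8.93% higher, and from the morula to the TE 4 fell, against 10.9% called lower and 11% higher. The steps to the ICM and TE share the morula libraries. Between TE and ICM limma called none of the 8, where 5.79% of all genes were called and 3 of the 8 had an unadjusted p under 0.05. Over the whole interval from 6 hpa to L2C 5 rose and 1 fell, against 30.7% of all genes called higher and 15.7% lower. The median change of the 8 genes over that interval was 1.12 on the log2 scale, beside 0.37 for all genes. Among the 5, Dppa2 was under 2-fold without L2C replicate 2 (0.92), and Nr5a2 was under 2-fold without 6 hpa replicate 4 (0.98) and not called with quantile normalization (0.55, adjusted p 0.163). In replicates 1 to 3 alone Dppa2 (1.06, adjusted p 0.106), Nr5a2 (0.93, adjusted p 0.152) and Rarg (0.48, adjusted p 0.441) were not called.

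**Figure D2:**
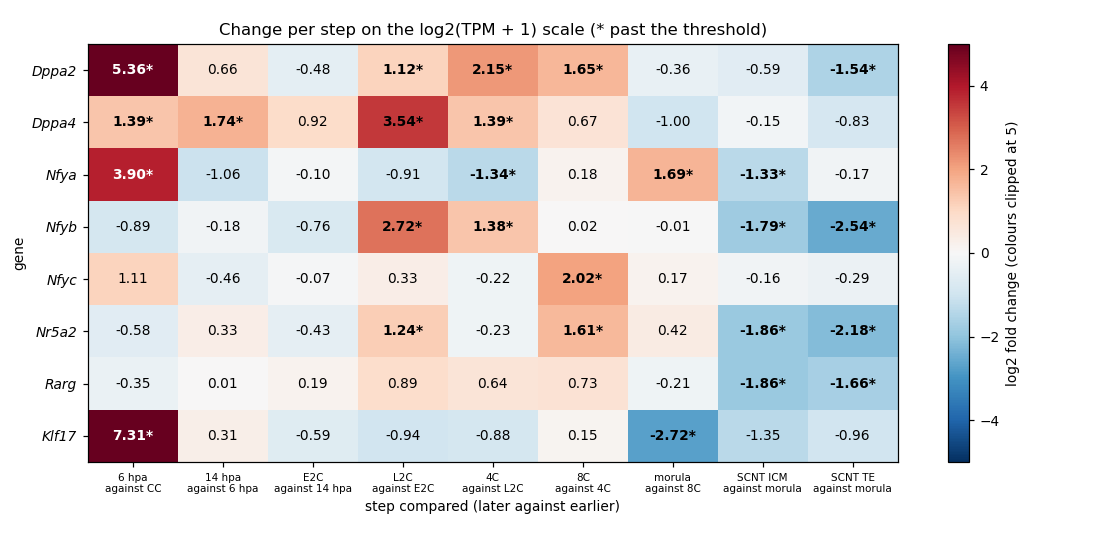
Log2 fold change on the log2(TPM + 1) scale of the 8 genes that entered the test, with a column for each step of later against earlier stage. Red is higher and blue lower in the later stage, and an asterisk marks changes past the threshold. Dppa4 is red at every step up to 8C and Dppa2 at all of these but E2C against 14 hpa (-0.48), and Nfyb, Nr5a2 and Rarg are blue at both steps out of the morula.

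Dux was at the edge of detection in SCNT embryos. Its row lies on the minus strand of chromosome 10 at chr10:58230651-58232675 in mm10, within an array of near-identical copies, so reads could be shared or lost among copies and its level is uncertain. It was 0, 0.406 and 0 TPM in the 3 CC libraries, ranged from 0 to 2.07 TPM with a median of 0.190 at 6 hpa, and reached at most 0.375 at 14 hpa. At E2C it was 0 in 4 of 6 libraries, with 1.86 TPM in replicate 4 and 0.0707 in replicate 6. At L2C, the stage at which the major wave occurs, it ranged from 0 to 1.10 with a median of 0.182. Only 3 of the 56 CC and SCNT libraries reached 1 TPM, one each at 6 hpa, E2C and L2C, and Dux was at 0 in all 6 morula libraries. The difference from E2C to L2C was 0.08 on the log2 scale, and a two-sided exact permutation test gave p = 0.729, or 0.892 adjusted over the 11 comparisons of this gene. The log2 difference was 0.36 from CCs to 6 hpa (exact permutation p 0.405) and -0.32 from L2C to 4C (exact permutation p 0.0974, adjusted p 0.357). None of the 11 comparisons passed, and the smallest exact permutation p was 0.0606.

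Among genes that Dux is known to switch on, 8 of 16 tested rose from E2C to L2C, while no comparison of Dux passed its test. A list of 18 such genes found in the tables, among them Zscan4 and Usp17l family members, had 16 in the test. From 6 to 14 hpa 4 of the 16 rose and none fell, where 6.17% of all genes were called higher, with Zfp352 up by 3.56 ± 0.58 (SE) and an adjusted p of 5.75e-06 and Usp17lc by 2.09 ± 0.45 with an adjusted p of 0.000497. From E2C to L2C 8 rose and 1 fell, where 23.6% of all genes were called higher and 11.1% lower, with a median change of 1.28, beside 0.26 for all genes. Usp17lb went up by 4.77 ± 0.65 and Tdpoz4 by 3.70 ± 0.57 in that step, with adjusted p of 3.6e-08 and 4.72e-07. From L2C to 4C 7 fell and none rose, where 26.5% of all genes were called lower, led by Zscan4c, with a log2 fold change of -3.39 ± 0.50, and Zscan4d, with -3.13 ± 0.51. Members of the Zscan4, Usp17l and Tdpoz families are near-identical copies, and their single values are uncertain for that reason.

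At E2C and at L2C the library with the most Dux was not the one with the most RNA of these genes. A link between Dux and these genes was not tested. Most Dux values were near 0 and come from a gene with near-identical copies, so the order of libraries by Dux is uncertain. E2C replicate 1 held the highest value of its stage for 12 of the 18 genes, among them Zscan4c at 26.2 TPM and Zscan4d at 17.1 TPM, and its Dux was at 0. E2C replicate 4, the library with Dux at 1.86 TPM, held Zscan4c at 0.951 TPM and Zscan4d at 2.40 TPM, and had the highest value for 1 of the 18, although its sum over all 18 genes, 642 TPM, was close to the 635 TPM of replicate 1. At L2C the library with the highest Dux, replicate 1, had the lowest sum over the 18 genes, 32.6 TPM, where the 5 others held 295 to 775 TPM. In the same replicate, whose reference genes summed to 30.4% of 1000000 TPM, Dppa4 and Nfyb were also the lowest of the stage, at 84.7 and 25.0 TPM.

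Dppa2 was present at 6 hpa and near 0 in the donor cells, and by median TPM it was the most abundant of the 9 genes from the 8C stage on. In CCs it was 0.194, 0.207 and 0 TPM, and at 6 hpa it ranged from 30.1 to 85.9 TPM with a median of 40.4, so that the groups did not overlap. The difference was 5.36 ± 0.41 (SE) on the log2 scale, with an adjusted p of 5.51e-17. From 6 to 14 hpa the change was 0.66 ± 0.33 with an adjusted p of 0.220, and in replicates 4 to 6 alone it passed at 1.58 with an adjusted p of 1.04e-05. From 14 hpa (29.9 to 122.9 TPM, median 83.2) to E2C (35.8 to 67.0, median 52.2) the change of -0.48 ± 0.33 did not pass, with an adjusted p of 0.510. At L2C Dppa2 ranged from 36.4 to 427 TPM with a median of 104, which was 1.12 ± 0.33 above E2C with an adjusted p of 0.00578, although the ranges overlapped. That call rested on L2C replicate 2, at 427 TPM, and was also lost within each replicate set. In replicates 1 to 3 the log2 change was 1.29 with an adjusted p of 0.0713, and in replicates 4 to 6 it was 0.94, under 2-fold, with an adjusted p of 0.00117. Without L2C replicate 2 the change was 0.74 with an adjusted p of 0.0549.

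The large gains of Dppa2 came after the 2-cell stage. The 5 libraries at 4C held 259, 442, 441, 898 and 751 TPM, and the 6 at 8C held 1318 to 2063 TPM with a median of 1510. Dppa2 rose by 2.15 ± 0.35 from L2C to 4C and by 1.65 ± 0.35 from 4C to 8C, with adjusted p of 1.06e-06 and 0.000399, and at the second step the ranges did not overlap. In the blastocyst it ranged from 636 to 1035 TPM in the ICM and from 272 to 649 TPM in the TE. Compared with the morula (935 to 1698 TPM) it fell in the TE by 1.54 ± 0.33 with an adjusted p of 0.000338, while the ICM differed by -0.59 ± 0.33 with an adjusted p of 0.202. The difference between TE and ICM was -0.95 ± 0.33 with an adjusted p of 0.0786, and it passed with TPM rescaled over reference genes and with quantile normalization, with adjusted p of 0.0299 and 0.0130, and in replicates 4 to 6 alone, where Nfyb passed as well.

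Dppa4 lies next to Dppa2 on the same strand of chromosome 16, at chr16:48283735-48294292 against chr16:48310274-48319513, with 15981 bases between them. It was nearly absent at 6 hpa, where Dppa2 held 30.1 TPM or more, and like Dppa2 it had its highest median TPM at 8C. It was 0, 0.134 and 0 TPM in CCs and 0.286 to 3.78 TPM at 6 hpa with a median of 1.95, a difference of 1.39 ± 0.47 with an adjusted p of 0.00873. At 14 hpa it ranged from 1.10 to 20.3 TPM with a median of 9.91, and it rose by 1.74 ± 0.38 with an adjusted p of 0.000698, the only gene of the 8 to pass at this step. At E2C it ranged from 6.24 to 38.2 TPM with a median of 17.8, and the change of 0.92 ± 0.38 did not pass, with an adjusted p of 0.160.

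The time at which Dppa4 went up differed between the 2 sets of replicates. In replicates 1 to 3 it was 1.10 to 8.70 TPM at 14 hpa and 25.4 to 38.2 TPM at E2C, and with those libraries alone the step from 14 hpa to E2C passed at 2.74 with an adjusted p of 0.000135, while that from 6 to 14 hpa was 0.67 with an adjusted p of 0.505. In replicates 4 to 6 it was 11.1 to 20.3 TPM at 14 hpa and 6.24 to 10.2 TPM at E2C, the opposite order, with a log2 difference of -0.91 and an adjusted p of 0.0670. Both sets were far higher at L2C, where all 6 libraries held 84.7 to 338 TPM with a median of 218 and none overlapped with E2C. The rise from E2C to L2C was 3.54 ± 0.38 with an adjusted p of 1.19e-10, and over the interval from 6 hpa to L2C it was 6.20 ± 0.38, a 73.4-fold change on the log2(TPM + 1) scale. Dppa4 went on to 386 to 746 TPM at 4C, which was 1.39 ± 0.40 higher with an adjusted p of 0.00383 (0.0596 with quantile normalization), and to 706 to 1107 TPM at 8C. In the morula it was 364 to 479 TPM, below every 8C library, with an adjusted p of 0.0719, and this difference passed with TPM rescaled (adjusted p 0.0478) and with quantile normalization (0.0491).

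Within each library the ratio of Dppa4 to Dppa2 moved with stage. It ranged from 0.00718 to 0.0974 at 6 hpa, from 0.0969 to 1.07 at E2C and from 0.793 to 2.94 at L2C, the only stage at which the median ratio, 1.85, was above 1. At 4C it was 0.819 to 1.49, and in the morula 0.239 to 0.449. In the ICM and TE it was 0.366 to 0.557 and 0.398 to 0.722. Over the 56 libraries, which share stages and depth, the Pearson r of the genes was 0.884 on the log2(TPM + 1) scale.

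**Figure D3:**
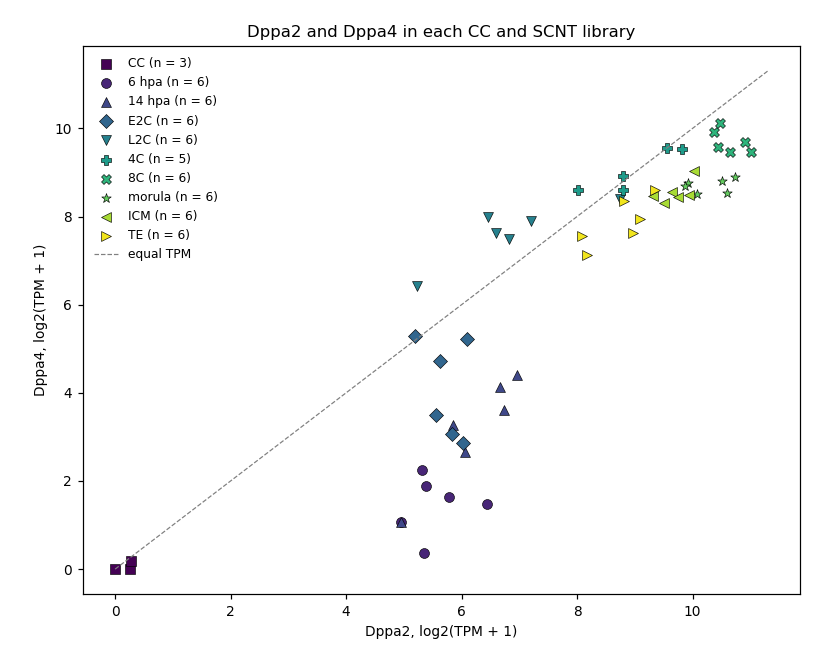
Dppa4 against Dppa2 in each of the 56 CC and SCNT libraries, both as log2(TPM + 1), with a symbol for each stage and a dashed line of equal TPM. The 6 hpa and 14 hpa libraries lie far below the line, most L2C libraries lie above it, and from 8C on all libraries lie below it again.

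The 3 subunits of NF-Y were all present in every 6 hpa library and followed different courses after it. Nfya, on chromosome 17 at chr17:48386885-48409820, was 1.26, 0.634 and 0.872 TPM in CCs. At 6 hpa it ranged from 22.3 to 57.6 TPM with a median of 24.1, a rise of 3.90 ± 0.61 with an adjusted p of 1.84e-07, and this was its highest stage. By L2C it ranged from 0.768 to 15.8 TPM with a median of 6.72, a fall of 2.08 ± 0.50 from 6 hpa with an adjusted p of 0.000402 and no overlap. At 4C the libraries held 5.31, 0.449, 2.15, 2.81 and 0.228 TPM, and the fall of 1.34 ± 0.52 from L2C had an adjusted p of 0.0344. That call was lost in 11 of 22 alternatives, among them the omission of L2C replicates 2, 4, 5 or 6 or 4C replicates 2 or 5, with adjusted p over the alternatives from 0.000235 to 0.714.

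Nfya came back in the morula. It ranged from 0.997 to 3.23 TPM at 8C and from 5.68 to 12.6 TPM in the morula, without overlap, a rise of 1.69 ± 0.50 with an adjusted p of 0.0164 (0.0688 with a pseudocount of 0.1, and 0.0589 in replicates 1 to 3 alone, where the change was 2.04). In the ICM it ranged from 0 to 14.8 TPM, with 0.0264 and 0 TPM in replicates 2 and 3, which are among the libraries with the fewest genes at 1 TPM or more, and the part of this in the ICM values of Nfya, Rarg and Klf17 was not tested. The fall from the morula, 1.33 ± 0.50 with an adjusted p of 0.0405, was lost in 10 of 23 alternatives, among them the omission of ICM replicates 2, 3 or 5 or of morula replicates 2, 3, 4 or 6. Without ICM replicate 3 it was 0.94 with an adjusted p of 0.171, and in replicates 4 to 6 alone the log2 difference was -0.09.

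Nfyb and Nfyc, whose proteins form the histone-fold part of the trimer, followed other courses. Nfyb, on chromosome 10 at chr10:82748700-82764141, was 25.6, 27.4 and 28.8 TPM in CCs and 10.1 to 18.7 TPM at 6 hpa. That difference, -0.89 ± 0.35 with an adjusted p of 0.0238, was under 2-fold, and in replicates 1 to 3 alone it passed at -1.09 with an adjusted p of 0.0467. It was lowest at E2C, at 3.10 to 9.68 TPM with a median of 7.62, a fall from 14 hpa that passed in replicates 4 to 6 alone (adjusted p 0.00381), and rose at L2C to 25.0 to 93.7 TPM with a median of 58.2 and no overlap. That rise was 2.72 ± 0.28 with an adjusted p of 4.66e-11, and a further one of 1.38 ± 0.30 with an adjusted p of 0.000143 brought it to 80.8 to 205 TPM at 4C. It then stayed at 94.8 to 211 TPM through 8C and the morula. In the ICM (21.2 to 49.8 TPM) and in the TE (14.2 to 43.8 TPM) it was below every morula library, with falls of 1.79 ± 0.28 and 2.54 ± 0.28 and adjusted p of 2.31e-06 and 5.91e-10.

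Nfyc, on chromosome 4 at chr4:120757435-120831579, was 18.7, 24.1 and 10.9 TPM in CCs and 15.8 to 55.3 TPM at 6 hpa, and no step before 8C passed in the main fit. The rise from CCs to 6 hpa passed with quantile normalization, at 1.63 with an adjusted p of 0.0123. It also passed with only the 2 groups compared, at 1.11 with an adjusted p of 0.0166. Between 4C (2.19, 23.6, 38.6, 90.4 and 74.6 TPM) and 8C (80.2 to 177 TPM) it rose by 2.02 ± 0.57 with an adjusted p of 0.00777. That call rested on 4C replicate 1, at 2.19 TPM, and without it the rise was 1.22 with an adjusted p of 0.109. In replicates 4 to 6 alone Nfyc rose earlier, by 1.12 from L2C to 4C with an adjusted p of 0.000241, and changed by 0.65 from 4C to 8C, under 2-fold. Nfyc then kept 73.1 to 208 TPM in morula and ICM libraries and 58.6 to 229 TPM in the TE. Here too the replicate sets differed, with 58.6 to 72.5 TPM in TE replicates 1 to 3 and 161 to 229 TPM in TE replicates 4 to 6.

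The ratio of Nfya to Nfyb within a library turned around. It ranged from 1.21 to 4.99 at 6 hpa and from 0.667 to 5.18 at E2C, and then from 0.0307 to 0.259 at L2C and from 0.00189 to 0.0335 at 4C. In CCs it was 0.0232 to 0.0493. At L2C every library had less Nfya than Nfyb, and every 6 hpa library had more.

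Nr5a2, on chromosome 1 at chr1:136843584-136960448, was present in every library at a low level and rose at L2C and 8C. It was 8.46, 5.64 and 9.09 TPM in CCs and 2.40 to 8.82 TPM at 6 hpa, and at E2C it ranged from 2.98 to 6.54 TPM. At L2C it ranged from 8.29 to 17.0 TPM with a median of 11.6 and no overlap with E2C, a rise of 1.24 ± 0.35 with an adjusted p of 0.00413. The change was 0.99 with quantile normalization, under 2-fold, and 0.97 with an adjusted p of 0.181 in replicates 1 to 3 alone. At 4C the libraries held 4.06, 4.82, 10.9, 28.2 and 13.2 TPM, and the difference from L2C of -0.23 ± 0.37 did not pass. At 8C it rose by 1.61 ± 0.37 to 10.3 to 60.1 TPM, with an adjusted p of 0.00112, and in the morula it was 34.5 to 60.2 TPM. In the ICM it fell to 3.18 to 18.6 TPM and in the TE to 6.25 to 13.6 TPM, both below every morula library, by 1.86 ± 0.35 and 2.18 ± 0.35 with adjusted p of 5.66e-05 and 3.49e-06.

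Rarg, on chromosome 15 at chr15:102234938-102257522, had the lowest mean TPM of the 8 genes in the test. It was under 0.8 TPM in every CC, 6 hpa, 14 hpa and E2C library, and 0 in 2 of the 6 libraries at 6 hpa. At L2C it ranged from 0.0947 to 4.41 TPM with a median of 0.890, and at 8C from 1.58 to 9.84 TPM. The rise of 1.10 ± 0.45 from 6 hpa to L2C had an adjusted p of 0.0350 and was lost in 8 of 21 alternatives, among them the omission of L2C replicate 6 (0.85, adjusted p 0.119), of L2C replicate 5 or of 6 hpa replicates 2, 3 or 5. The difference from E2C to L2C, 0.89 ± 0.45 with an adjusted p of 0.109, passed in replicates 4 to 6 alone at 1.71 with an adjusted p of 0.0116. In the morula 5 libraries held 1.31 to 5.97 TPM and replicate 2 held 19.6 TPM. In the ICM it was 0 to 0.172 TPM in 5 libraries and 4.55 TPM in replicate 6, a fall of 1.86 ± 0.45 with an adjusted p of 0.00113, and in the TE it was 0 to 2.73 TPM, a fall of 1.66 ± 0.45 with an adjusted p of 0.00380. In replicates 4 to 6 alone neither fall passed, at log2 differences of -0.89 and -0.51 with adjusted p of 0.224 and 0.524.

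Klf17, on chromosome 4 at chr4:117756659-117765666, had the highest level of the 9 genes at 6 hpa. It was 0, 0.0153 and 0 TPM in CCs and 93.7 to 220 TPM at 6 hpa with a median of 174, a difference of 7.31 ± 0.67 on the log2(TPM + 1) scale with an adjusted p of 4.65e-14. From 6 hpa to E2C it split by replicate set. Replicates 1 to 3 held 93.7 to 136 TPM and replicates 4 to 6 held 211 to 220 TPM at 6 hpa. Replicates 1 to 3 held 76.1 to 134 TPM at 14 hpa and 45.5 to 71.2 TPM at E2C, whereas replicates 4 to 6 held 357 to 396 and 284 to 325 TPM. At L2C the sets overlapped and the range was 23.7 to 98.4 TPM with a median of 84.2, and in replicates 4 to 6 alone the fall from E2C passed, at -1.77 with an adjusted p of 0.000146. The difference from 6 hpa to L2C, -1.22 ± 0.55, had an adjusted p of 0.0558, and it passed in 6 of 23 alternatives, over which the adjusted p ranged from 0.00290 to 0.228.

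Klf17 fell between the 8C stage and the morula. It held 24.2 to 53.5 TPM at 8C and 1.36 to 23.0 TPM in the morula with no overlap, a fall of 2.72 ± 0.55 with an adjusted p of 0.000307 (0.0628 in replicates 1 to 3 alone). In the ICM it was 0.0345 to 0.364 TPM in replicates 1 to 3 and 1.48 to 8.55 TPM in replicates 4 to 6, and the log2 difference from the morula was -1.35 ± 0.55 with an adjusted p of 0.0587. Within replicates 1 to 3 it was -3.18 with an adjusted p of 0.000143, and within replicates 4 to 6 it was 0.47 with an adjusted p of 0.314. The TE held 0.241 to 6.59 TPM, and its difference from the morula passed in replicates 1 to 3 alone, at -2.37 with an adjusted p of 0.00386. By then the oocyte marker sum was 0.586 to 11.2 TPM in the ICM.

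Promoter sequences from RefSeq (GRCm38.p6) are shown for Klf17, Nr5a2 and Nfyc, as examples that hold letters members of the set are known to bind. RefSeq promoters were matched for 6 of the 9 genes, 12 start sites in all, and Dux, Dppa2 and Dppa4 had no entry. The 250 bases before each start were searched on both strands for CCAAT, which NF-Y binds, for TCAAGGNCA, which Nr5a2 binds, and for AGGTCA, the core hexamer of nuclear receptor sites. Capitals mark these letters in either orientation, and each line runs 5′ to 3′ on the strand of the gene, here the minus strand, up to the base before the start.
Klf17, chr4:117765667-117765916: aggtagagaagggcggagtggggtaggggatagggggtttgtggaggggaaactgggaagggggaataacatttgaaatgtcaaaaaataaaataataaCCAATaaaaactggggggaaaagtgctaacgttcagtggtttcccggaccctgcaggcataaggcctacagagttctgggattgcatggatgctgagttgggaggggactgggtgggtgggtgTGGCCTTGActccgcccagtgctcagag
Nr5a2, chr1:136960449-136960698: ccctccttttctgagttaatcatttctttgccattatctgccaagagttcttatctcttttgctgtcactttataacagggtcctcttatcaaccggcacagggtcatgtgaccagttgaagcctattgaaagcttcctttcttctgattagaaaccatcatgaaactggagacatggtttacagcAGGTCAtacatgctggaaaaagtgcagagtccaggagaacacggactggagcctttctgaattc
Nfyc, chr4:120825210-120825459: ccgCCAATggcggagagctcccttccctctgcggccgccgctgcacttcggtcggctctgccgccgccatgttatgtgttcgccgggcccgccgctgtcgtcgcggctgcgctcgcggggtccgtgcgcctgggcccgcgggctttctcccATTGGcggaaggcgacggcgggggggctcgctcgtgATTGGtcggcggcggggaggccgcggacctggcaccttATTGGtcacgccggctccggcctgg

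The Klf17 promoter held 1 CCAAT box, at 151 to 147 bases before the start, and 1 match to TCAAGGNCA on the opposite strand, at 28 to 20 bases before it. CCAAT occurred in 33.8% of 32851 RefSeq promoters of this length and TCAAGGNCA in 1.39%. Nfyc held 4 CCAAT boxes at the start site shown, which is not the start its row in the tables gives, and CCAAT was found at 5 of the 12 start sites of the set. The Nr5a2 start that the tables give held no CCAAT and 1 AGGTCA, letters found in 14.0% of promoters. A match is a description of the letters only.

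The genes most like each member over the 56 libraries are given as a description. Dppa2 was closest to Fbxo15 (Pearson r 0.969), followed by Tigar and Tmem41b at 0.914 and 0.913. Dppa4 was closest to Timd2, Crxos and Trim43a, at 0.962, 0.959 and 0.950, of which Crxos is a homeobox gene of the 2-cell embryo. Klf17 was closest to Khdc1b, Npm2 and Mbd3l2, at 0.926, 0.925 and 0.920, of which Npm2 encodes a histone chaperone of the oocyte. For Nfya these were Med15, Ddx4 and Tcea3 (0.830, 0.828 and 0.821), for Nfyb Sumo2, Cdk2ap1 and Nipal1 (0.907, 0.900 and 0.898) and for Nfyc Aurka, Farsa and Noc4l (0.909, 0.896 and 0.875). Nr5a2 was closest to Hsd17b14, Iqub and Kng1 (0.867, 0.849 and 0.832) and Rarg to Bri3bp, Tyk2 and Ptdss2 (0.835, 0.831 and 0.831).

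Relatives of the members were counted at the step from E2C to L2C, at which 23.6% of all genes were called higher and 11.1% lower. Of 16 other Klf genes 12 were in the test and 9 rose, with a median of 1.76, while Klf17 itself had a log2 difference of -0.94 ± 0.55 and an adjusted p of 0.172. Klf5 rose by 2.67 ± 0.49 and Klf10 by 2.31 ± 0.50, with adjusted p of 1.34e-05 and 0.000184. Of 11 other nuclear receptors and their partners 6 were in the test and 1 rose, Nr2c2 by 1.23 ± 0.45 with an adjusted p of 0.0259. Of 22 other factors of genome activation 6 rose and 4 fell, led by Obox1, a homeobox gene stored in the oocyte, with a log2 fold change of -3.61 ± 0.34, and Crxos, which rose by 3.30 ± 0.63. Of 16 known regulators of Dux and Dppa2 4 rose and 1 fell, with Sumo2 up by 2.49 ± 0.28 and Dppa3 down, at a log2 fold change of -1.82 ± 0.23. Among the other factors of genome activation and among these regulators the share that rose was close to that of all genes.

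In the morpholino experiment the targeted RNAs were checked first. Max was 6.82 and 0.443 TPM in Max MO ICM against 38.0 and 8.42 TPM in control ICM, and 16.3 and 8.68 TPM in Max MO TE against 34.5 and 28.5 TPM in control TE. Mcrs1 was 86.8 and 73.4 TPM in Mcrs1 MO ICM against 253 and 310 TPM in control ICM, and 41.1 and 45.5 TPM in Mcrs1 MO TE against 219 and 294 TPM in control TE. A morpholino can block translation or splicing without removing its RNA, so these levels do not measure the protein. Control ICM replicate 1 goes against its label in part. Its TE markers summed to 16015 TPM, against 354 TPM in replicate 2 and 18391 to 20560 TPM in control TE, although Nanog, an ICM marker, was 561 and 639 TPM in the 2 control ICM libraries.

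Of the 9 genes only Nr5a2 in Max MO ICM passed the threshold. Nr5a2 was 26.4 and 42.5 TPM in control ICM and 2.83 and 12.8 TPM in Max MO ICM, so that the groups did not overlap. The fall was 2.25 ± 0.58 on the log2 scale with an adjusted p of 0.0167, where 15.1% of 11219 genes tested were called lower and 8.65% higher. Without control ICM replicate 1 it was 2.58 ± 0.67 with an adjusted p of 0.01475, and without Max MO ICM replicate 1, the library at 2.83 TPM, it was 1.32 with an adjusted p of 0.112. Over all 12 alternatives the adjusted p ranged from 0.0091 to 0.151. TE markers in Max MO ICM summed to 2718 to 5831 TPM. The sum of 8 ICM markers also moved, with 676 to 722 TPM in control ICM, 395 to 491 TPM in Max MO ICM and 181 to 463 TPM in Mcrs1 MO ICM, and none of the 8 was at 0 in all libraries of a group. Of these markers 7 were in the test and 1 was called in Max MO ICM, Sox17, a marker of primitive endoderm, which was 0 and 0.133 TPM in control ICM and 32.5 and 178 TPM in Max MO ICM (6.18 ± 1.26, adjusted p 0.00609). In Mcrs1 MO ICM Sox17 was also called higher (4.83 ± 1.26, adjusted p 0.0354). There 2 of the 7 were called lower, led by Klf2 (-2.64 ± 0.59, adjusted p 0.0202), where 10.1% of all genes were called. The part of these markers in the Nr5a2 result was not tested.

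In Mcrs1 MO ICM Nr5a2 was 7.52 and 12.2 TPM, also below both controls. TE markers in those libraries summed to 8050 to 11559 TPM, against 16015 and 354 TPM in control ICM replicates 1 and 2. The part of this in the Nr5a2 difference was not tested. The difference of -1.70 ± 0.58 had an adjusted p of 0.0763 and did not pass, where 10.1% of all genes were called, but it passed at -2.04 ± 0.67 with an adjusted p of 0.0472 without control ICM replicate 1. Both comparisons use the same 2 control libraries. In the TE Nr5a2 was 12.7 and 17.0 TPM in controls, 9.95 and 10.1 TPM in Max MO and 8.08 and 9.25 TPM in Mcrs1 MO libraries, with log2 differences of -0.51 ± 0.58 and -0.70 ± 0.58 and adjusted p of 0.681 and 0.494. The response to Max MO differed between TE and ICM by 1.74 ± 0.82 with an adjusted p of 0.397, so a difference between the lineages was not shown.

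The other genes showed no call in any of the morpholino comparisons. Limma called none of the 8 in Max MO TE, in Mcrs1 MO ICM, in Mcrs1 MO TE or between control TE and control ICM, where 2.5%, 10.1%, 5.08% and 2.92% of all genes were called, and 0, 1, 1 and 2 of the 8 had an unadjusted p under 0.05. Dppa2 was between 682 and 1597 TPM and Dppa4 between 227 and 645 TPM in the 12 libraries. Dppa4 was 403 and 491 TPM in control ICM and 631 and 645 TPM in Max MO ICM, a log2 difference of 0.52 ± 0.23 with an adjusted p of 0.114. Nfyc was 214 and 244 TPM in control ICM and 139 and 171 TPM in Max MO ICM, a log2 difference of -0.56 ± 0.20 with an adjusted p of 0.0579. Rarg was 9.74 and 0.247 TPM in control ICM and at most 4.40 TPM elsewhere, and its SE in these comparisons was 1.00.

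Klf17 stayed low in fertilized blastocysts, between 0.409 and 5.59 TPM, and Dux was at 0 in 11 of the 12 libraries and 0.557 TPM in control ICM replicate 2. For both differences between TE and ICM in the response limma called none of 11219 genes, with 1473 and 972 at an unadjusted p under 0.05 and none of the 8 members among them. Of the 22 other factors of genome activation 17 were in the test, and 7 of them fell in Max MO ICM, where 15.1% of all genes were called lower, among them Tfap2c at -2.03 ± 0.25 and Ctcf at -1.71 ± 0.39, with a median of -1.08 beside -0.21 for all genes.

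**Figure D4:**
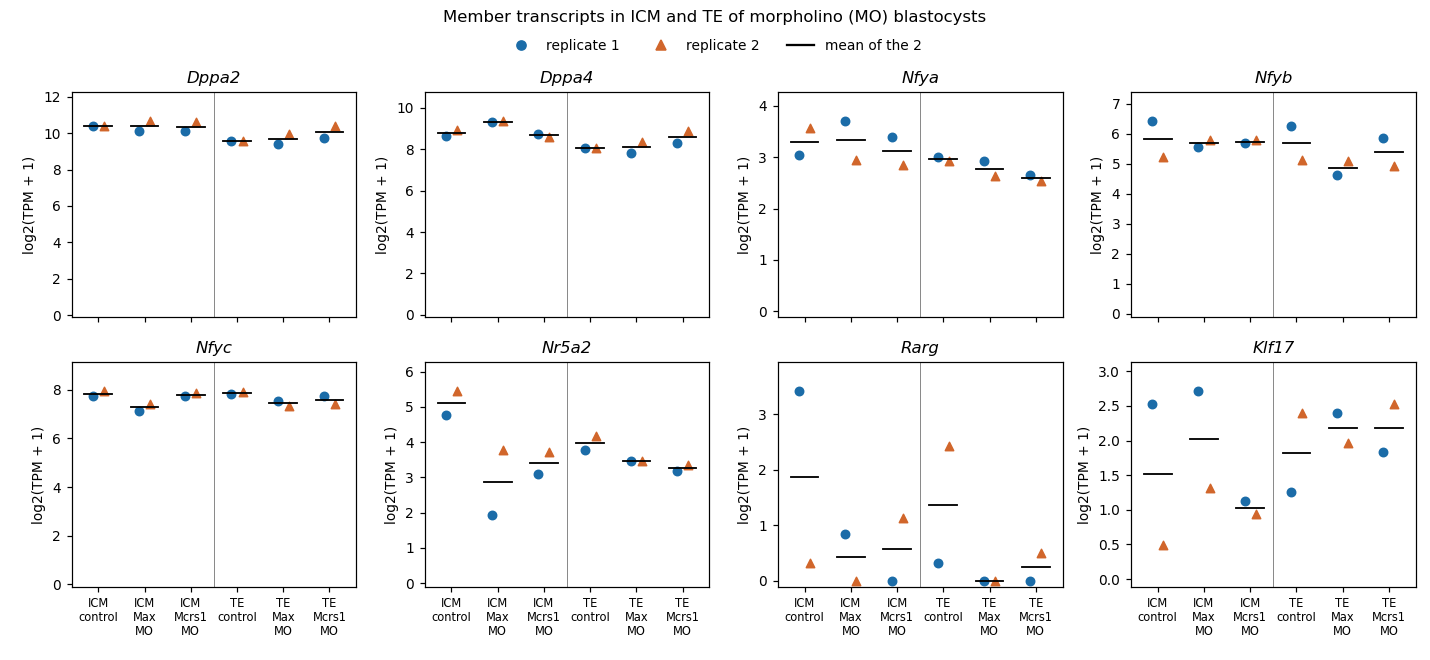
Level of the 8 genes above the filter in each of the 12 libraries of fertilized blastocysts, as log2(TPM + 1), with circles for replicate 1, triangles for replicate 2 and a bar for their mean. Nr5a2 is lower in both Max MO ICM libraries (2.83 and 12.8 TPM) than in both control ICM libraries (26.4 and 42.5 TPM), and Rarg and Klf17 differ widely between replicates.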

How the data were processed

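Per the labels and the methods of the study, the authors trimmed reads with cutadapt 1.16, aligned them to mm10 with HISAT2 and ran StringTie. The submitters' processing notes also name Cufflinks and deepTools. The deposited tables hold coverage, FPKM and TPM per gene. The deposited TPM column, treated as a signal, sums to 1000000 over the loci assembled in each library, with 24421 reference genes listed beside them, and the deposited FPKM and coverage signal served only to estimate aligned bases. Read counts were not used here, so there is no count test, counting interval or floor.

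TPM was summed per symbol. Fits used limma 3.58.1 (lmFit, eBayes with trend) in R 4.3.3 on log2(TPM + 1), over 56 CC and SCNT libraries (12084 genes) and 12 fertilized libraries (11219 genes), two-sided, with Benjamini-Hochberg adjustment over all genes of the fit. Dux, with a mean TPM under 1, was compared by two-sided exact permutation tests (Python 3.11.15, scipy 1.17.1), and was not tested in the morpholino libraries. Promoters were searched in the RefSeq table of GRCm38.p6. The fit was tested on simulated data. The members, the gene lists and the markers were chosen with earlier results of these data known. Besides the 9 members, the genes named are the 3 with the highest Pearson r to each member, and in each list count the 2 genes past the threshold with the largest change. The lists were other Klf genes, other nuclear receptors, other factors of genome activation, Dux targets, regulators of Dux and Dppa2, and markers of cumulus cells, oocytes, ICM and TE.

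Same-numbered libraries deviated together, with every pair's correlation over 0.1, for 14 hpa against 6 hpa (0.142 to 0.390 over 6 pairs) and for SCNT TE against SCNT ICM (0.130 to 0.298 over 6 pairs), and the numbers come from the labels, which do not say that they mark shared embryos. Alternatives were a pseudocount of 0.1, 2 other filters, TPM rescaled over reference genes, quantile normalization, the largest row per gene, replicate number as a block, fewer groups, either set of replicates, and each library left out.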

Additional observations from a re-analysis of the deposited data

Results flagged for a closer look

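Within groups of 4 to 10 libraries, a library was picked out where its gap to the nearest other library was large against the range of the group (Dixon's 95% limit). Of 80 groups of values of the 9 genes 9 gave such a library. The limit gives about 1 in 20 for normally distributed values. TPM, with many values at or near 0, is not so distributed, and 9 is not read as an excess. Dux was 1.86 TPM in E2C replicate 4, against 0 to 0.0707 TPM in the other 5, and 0.173 TPM in 8C replicate 4, against 0 to 0.0467 TPM. Dppa2 was 427 TPM in L2C replicate 2, against 36.4 to 147 TPM in the others, and the call of Dppa2 from E2C to L2C was lost without that library. Dppa4 was 524 TPM in SCNT ICM replicate 6, against 315 to 376 TPM. Nfya was 57.6 TPM in 6 hpa replicate 2, against 22.3 to 25.7 TPM. Nfyb was 21.2 TPM in SCNT ICM replicate 3, against 39.8 to 49.8 TPM. Rarg was 19.6 TPM in morula replicate 2, against 1.31 to 5.97 TPM, and 4.55 TPM in SCNT ICM replicate 6, against 0 to 0.172 TPM. Klf17 was 23.0 TPM in morula replicate 3, against 1.36 to 6.30 TPM.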

How the results depend on the processing

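Of the counts of members past the threshold, 159 under other settings stayed within 1.5 times the reported count and 14 did not, and with 1 library left out 159 did and 4 did not. In the SCNT series the count of 2 for morula against 8C was 1 with a pseudocount of 0.1. The count of 0 for SCNT TE against SCNT ICM was 1 with TPM rescaled, 1 with quantile normalization and 2 in replicates 4 to 6. With replicates 1 to 3 only, the counts were 0 for 14 hpa against 6 hpa, 1 for E2C against 14 hpa, 2 for L2C against E2C, 0 for morula against 8C and 3 for L2C against 6 hpa. With replicates 4 to 6 only, they were 2 for 14 hpa against 6 hpa, 1 for E2C against 14 hpa and 2 for SCNT ICM against morula, and Nfyc from L2C to 4C turned to a rise of 1.12 with an adjusted p of 0.000241, against -0.22 in all libraries. The count of 1 for Max MO against control in the ICM was 0 with quantile normalization and 0 with only the 2 groups compared. With 1 library left out, the count ran from 0 to 1 for SCNT TE against SCNT ICM (1 without SCNT ICM replicate 6), from 0 to 2 for Max MO against control in the ICM (2 without control ICM replicate 2, 0 without Max MO ICM replicate 1) and from 0 to 1 for Mcrs1 MO against control in the ICM (1 without control ICM replicate 1). The causes were not tested.

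With replicate number as a block, Klf17 passed for L2C against 6 hpa (-1.22, adjusted p 0.0175) and for SCNT ICM against morula (-1.35, adjusted p 0.0167), and it changed no other call of a member. Apart from 14 hpa against 6 hpa and SCNT TE against SCNT ICM, at least 1 pair of same-numbered libraries in each SCNT comparison had a correlation of 0.1 or less, down to -0.226, so the numbers were not taken as pairs there, and the control TE and ICM libraries gave 0.128 with only 2 pairs. For Dux none of 171 alternative values passed. The median change of all genes moved by -0.44 to 0.41 with quantile normalization and by -0.24 to 0.39 with TPM rescaled, and the share of calls that were higher was 30.7% to 73.4% as reported, 42.5% to 55.9% with quantile normalization and 22.5% to 79.2% with TPM rescaled. What depth limits cannot be given for any gene here, since neither counts nor a detection limit are known.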

Other observations

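Loci assembled from single libraries, which carry no gene name and were used in no comparison, extended beyond the Dux row on its strand in 2 of 6 libraries at 6 hpa, 2 of 6 at 14 hpa, 1 of 6 at E2C and 2 of 6 at L2C, and in no library from 4C to the SCNT blastocyst. Their summed TPM reached 13.2 at 6 hpa, 23.3 at 14 hpa, 2.02 at E2C and 3.76 at L2C. In fertilized blastocysts such a locus was found in 1 Mcrs1 MO ICM library at 2.54 TPM and in 1 control TE library at 1.22 TPM. These loci span neighbouring sequence, so their values are not levels of Dux.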
